A study of Mus musculus with 4 samples.

Results

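The 10 genes described here, *Tagln2*, *Tagln*, *Cnn2*, *Cnn3*, *Acta2*, *Myl9*, *Tpm1*, *Vcl*, *Ctgf* and *Cyr61*, encode proteins that bind or anchor actin filaments, or secreted proteins whose transcription follows the state of actin. They were read from every probe that carried one of these names on 4 arrays of mouse neural stem/progenitor cells (NSPCs), cells that grow as floating spheres and can form neurons and glia. These were 19 of 55681 probes. All 19 probes passed the filter on dim probes, and the 10 genes are among 20231 genes tested. *Tagln2* was selected on a measured value, its low ratio of PJ34 over control in wild-type cells, and the other 9 genes were chosen by name because they are related to it by function. For these genes the wild-type ratios, and the difference between genotypes that contains them, are therefore given as a description without a test.

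The cells came from mouse embryos at embryonic day 13.5, labelled Slc:ICR in both genotypes, and were wild-type or *Trp53*-/-, that is, homozygous for a disrupted *Trp53*, the gene of the transcription factor p53, in a mouse line from the RIKEN collection. How that line was brought onto the Slc:ICR strain is not given in the sources used here. They were grown in neurosphere medium with B-27 and with EGF and FGF-basic at 20 ng/ml each. Each array compared RNA of cells given 20 μM PJ34, an inhibitor of poly(ADP-ribose) polymerases, carried by Cy5, with RNA of control cells of the same genotype, carried by Cy3. Each genotype had 2 arrays, the RNA of each having been prepared independently. How many embryos contributed to a culture, and for how long PJ34 was present before RNA was taken, are not given in the sources used here. The dyes were not swapped, so that a preference of a probe for a dye cannot be told apart from the effect of PJ34, and RNA of whole cultures cannot tell fewer expressing cells apart from less RNA per cell.

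Serum response factor (SRF) binds a DNA element called the CArG box and drives genes of the actin cytoskeleton together with the coactivators MRTF-A and MRTF-B (genes *Mkl1* and *Mkl2*). Free actin monomers hold these coactivators in the cytoplasm, so that assembly of actin filaments raises transcription of SRF targets. YAP and TAZ (genes *Yap1* and *Wwtr1*) are coactivators restrained by the Hippo kinases, and they act through TEAD factors, which bind the letters GGAATG. *Ctgf* and *Cyr61* are widely used readouts of YAP and TAZ, and *Acta2*, *Tagln* and *Myl9* are known above all from smooth muscle, where SRF controls them.

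Promoter sequences from RefSeq on GRCm38.p6 were at hand for 8 of the 10 genes, each reaching from 250 bases before the transcription start to 50 bases after it. *Tagln* and *Ctgf* had no entry. A CArG box, which is a run of A and T bases between CC and GG, stood in 3 of the 8 promoters, those of *Cnn2*, *Myl9* and *Vcl*, and in 1.63% of 32851 mouse promoters of the same length. GGAATG, searched on both strands, stood in 5 of the 8 promoters and in 14.7% of all promoters. The parts of 6 promoters that hold these letters are shown because *Tagln2*, *Acta2* and *Myl9* had the 3 largest decreases with PJ34 in *Trp53*-/- cells, because *Cnn2* and *Vcl* hold a CArG box, and because *Cyr61* is a gene used to read out YAP. They read 5′ to 3′ on the strand of the gene, and capitals mark the CArG boxes of 10 letters and GGAATG or its reverse complement CATTCC.
Tagln2 (chr1:172500106-172500185, + strand, from 140 to 61 bases before the start): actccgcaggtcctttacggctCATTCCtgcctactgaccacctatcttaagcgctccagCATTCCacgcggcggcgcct
Acta2 (chr19:34255489-34255548, - strand, from 175 to 116 bases before the start): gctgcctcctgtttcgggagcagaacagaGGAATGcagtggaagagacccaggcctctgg
Myl9 (chr2:156775274-156775333, + strand, from 190 to 131 bases before the start): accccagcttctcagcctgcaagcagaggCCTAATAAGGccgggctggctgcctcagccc
Cnn2 (chr10:79988510-79988569, + strand, from 90 to 31 bases before the start): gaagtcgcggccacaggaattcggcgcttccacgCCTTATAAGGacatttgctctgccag
Vcl (chr14:20929148-20929267, + strand, from 250 to 131 bases before the start): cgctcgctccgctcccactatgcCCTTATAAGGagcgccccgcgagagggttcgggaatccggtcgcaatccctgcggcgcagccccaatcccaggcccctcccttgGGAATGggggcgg
Cyr61 (chr3:145650059-145650118, - strand, from 133 to 74 bases before the start): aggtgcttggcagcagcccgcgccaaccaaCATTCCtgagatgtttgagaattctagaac

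The *Tagln2* promoter held GGAATG at 2 places, both on the reverse strand, which start 118 and 80 bases before the transcription start. No exact CArG box was in the window of *Tagln2* or of *Acta2*. Sites that deviate from the exact letters, such as those with a G or C within the run of A and T, were not searched for. A missing match therefore does not show that a promoter lacks a site for SRF. The promoter of *Tpm1* held 1 GGAATG, 56 bases before the start, and that of *Cnn3* held neither motif. A match is a run of letters and not a measured binding site, and these arrays measured no binding.

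The arrays were checked before the genes were read. *Trp53* gave normalized log2 signals of 8.28 and 8.51 in untreated wild-type cells and of 7.56 and 7.82 in untreated *Trp53*-/- cells, a difference of -0.71 that did not pass the test (SE 0.19, limma *q* = 0.0557). Whether its probe lies in the disrupted part of the gene could not be read from the files. All 10 markers of neural progenitors, *Nes*, *Sox2* and *Pax6* among them, were well above background in all 8 channels. Between 21508 and 24540 probes were well above background in the control channels and between 26085 and 27159 in the PJ34 channels. The array of *Trp53*-/- replicate 2 stood apart in sex-linked genes. Its log2 ratios of PJ34 over control were 4.22 for *Eif2s3y*, 3.12 for *Ddx3y* and -1.39 for *Xist*, whereas on the other 3 arrays they lay between -0.20 and 0.84, between -0.20 and 0.18 and between -0.049 and 0.53. The *Trp53*-/- calls of the 10 genes and of the named pathway and marker genes are therefore also given without that array, which was not done for single probes. The untreated genotypes also differed in *Ddx3y*, with log2 signals of 8.25 and 8.06 in wild-type and 6.04 and 6.17 in *Trp53*-/- cells. For *Eif2s3y* these were 8.96 and 8.47 against 6.01 and 6.24. Neither gene was well above background in an untreated *Trp53*-/- culture. Both passed the filter only through the wild-type arrays, so that these values are a description and not a test independent of the filter.

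Log2 ratios of PJ34 over control below 0 mean less signal with PJ34, and -1 is a 2-fold decrease. In *Trp53*-/- cells, each mean of 2 arrays was tested against 0 with limma over all 20231 genes, and a gene passed when *p* and Storey's *q*, an estimate of the share of false calls, were both below 0.05. By this rule 10.5% of all genes tested were lower and 12.8% were higher with PJ34. Of the 10 genes, 6 fell, namely *Tagln2*, *Acta2*, *Myl9*, *Cnn2*, *Cnn3* and *Tpm1*, and 1 rose, *Ctgf*. *Tagln2*, *Acta2* and *Myl9* fell by more than 2-fold, as did 0.272% of all genes tested. The median of the 10 genes was -0.52 in *Trp53*-/- and -0.43 in wild-type cells, against 0.033 and 0.029 over all genes. *Tagln2*, *Acta2*, *Cnn2*, *Cnn3*, *Tpm1* and *Vcl* had ratios below 0 on all 4 arrays, whereas *Myl9* had 0.0078 on wild-type replicate 2. *Ctgf* was the 1 gene of the 10 above 0 on all 4. These signs include the wild-type ratios and are a description, and the share of all genes with such signs was not counted.

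**Figure D1:**
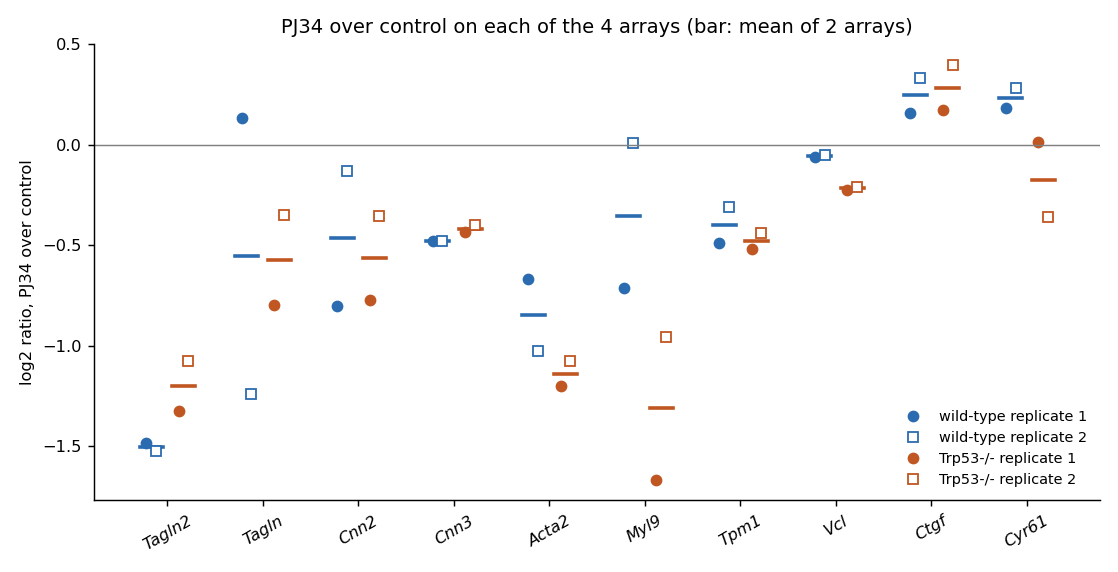
Log2 ratio of PJ34 over control (vertical axis) for the 10 genes on each array. Circles are replicate 1, squares replicate 2, blue is wild-type, orange is *Trp53*-/-, and bars are the means of 2 arrays. *Tagln2* lay between -1.52 and -1.07 on all 4 arrays, while the wild-type arrays were far apart for *Tagln*, *Cnn2* and *Myl9*.

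*Tagln2* encodes transgelin 2, a small actin-binding protein of the calponin family that is made in many cells outside smooth muscle. Its ratios were -1.48 and -1.52 in wild-type cells and -1.32 and -1.07 in *Trp53*-/- cells. The 4 arrays lay within a narrow range, with both *Trp53*-/- arrays less negative than both wild-type arrays. In *Trp53*-/- cells *Tagln2* fell by 1.20 on the log2 scale (SE 0.096, 2.30-fold, limma *q* = 7.14e-05). In wild-type cells the mean signal with PJ34 was 2.84-fold lower. Before normalization, the mean spot signals of the brightest probe were 10340 (control) and 5307 (PJ34) on the array of wild-type replicate 1 and 8755 (control) and 9348 (PJ34) on that of *Trp53*-/- replicate 2. On the latter array the raw PJ34 signal was the higher of the pair, so that the ratio below 0 there is a ratio relative to other probes of like brightness, on which the loess normalization is set.

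*Tagln*, transgelin or SM22α, is a classical SRF target of smooth muscle. Its ratios were 0.13 and -1.24 in wild-type cells and -0.80 and -0.35 in *Trp53*-/- cells. Both *Trp53*-/- arrays lay between the wild-type arrays, and the *Trp53*-/- mean of -0.57 did not pass (SE 0.24, limma *q* = 0.0669). *Cnn2* and *Cnn3* encode calponins 2 and 3, which bind actin filaments and damp the myosin ATPase. *Cnn2* had ratios of -0.80 and -0.13 in wild-type cells and of -0.77 and -0.35 in *Trp53*-/- cells. All 4 were below 0 with a wide spread in both genotypes, and in *Trp53*-/- cells *Cnn2* fell by 0.56 on the log2 scale (SE 0.15, limma *q* = 0.0157). *Cnn3* had ratios of -0.48 and -0.48 in wild-type cells and of -0.44 and -0.40 in *Trp53*-/- cells, the closest agreement of replicates among the genes that fell. The decrease in *Trp53*-/- cells was 1.34-fold (SE 0.088 on the log2 scale, limma *q* = 0.00567).

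*Acta2* encodes smooth muscle α-actin, an actin isoform also made by pericytes and by contractile fibroblasts. Its ratios were -0.67 and -1.03 in wild-type cells and -1.20 and -1.08 in *Trp53*-/- cells, each from 10 spots per array. Both *Trp53*-/- arrays were lower than both wild-type arrays. The decrease in *Trp53*-/- cells was 2.20-fold (log2 ratio -1.14, SE 0.11, limma *q* = 0.000173). *Myl9* encodes a regulatory light chain of nonmuscle and smooth muscle myosin II. Its ratios were -0.71 and 0.0078 in wild-type cells and -1.66 and -0.95 in *Trp53*-/- cells, which did not overlap. It had the largest decrease of the 10 genes in *Trp53*-/- cells, by 1.31 on the log2 scale (SE 0.18, 2.48-fold, limma *q* = 0.000956). *Tpm1* encodes a tropomyosin, which lies along actin filaments. Its ratios were -0.49 and -0.31 in wild-type cells and -0.52 and -0.44 in *Trp53*-/- cells, close to those of *Cnn3*. The decrease in *Trp53*-/- cells was 1.39-fold (SE 0.093 on the log2 scale, limma *q* = 0.00399).

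*Vcl* encodes vinculin, which links actin filaments to integrin and cadherin complexes. Its ratios of -0.060 and -0.051 in wild-type cells and of -0.22 and -0.21 in *Trp53*-/- cells were small on every array, and the *Trp53*-/- mean did not pass (-0.22, SE 0.087, limma *q* = 0.0589). *Ctgf* and *Cyr61* encode the matricellular proteins CCN2 and CCN1. Both were dim, though well above background in all 8 channels. Their control spot signals before normalization were 68 to 99 for *Ctgf* and 78 to 182 for *Cyr61*, over local backgrounds of 18 to 43.5. The size of such ratios depends on the background correction, and the scanner's ratios of *Ctgf* were 0.45 in wild-type and 0.47 in *Trp53*-/- cells. *Ctgf* had ratios of 0.16 and 0.33 in wild-type cells and of 0.17 and 0.40 in *Trp53*-/- cells. It was above 0 on every array and rose by 0.28 in *Trp53*-/- cells (log2 ratio, SE 0.098, limma *q* = 0.0384), a call that was lost without either *Trp53*-/- array (*q* = 0.0627 without replicate 1 and 0.387 without replicate 2). *Cyr61* had ratios of 0.18 and 0.28 in wild-type cells and of 0.014 and -0.36 in *Trp53*-/- cells. Both wild-type arrays were above both *Trp53*-/- arrays, whose mean of -0.17 did not pass (SE 0.11, limma *q* = 0.147).

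Leaving out the array of *Trp53*-/- replicate 2 left 1 array in that genotype, whose spread was then taken from the wild-type arrays. Of all genes tested, too, fewer passed without *Trp53*-/- replicate 1 and fewer without *Trp53*-/- replicate 2. Without it 5 of the 10 genes were lower, *Tagln2* with -1.32 (limma *q* = 0.000176), *Acta2* with -1.20 (*q* = 0.000694), *Myl9* with -1.66 (*q* = 0.000423), *Cnn2* with -0.77 (*q* = 0.0232) and *Tpm1* with -0.52 (*q* = 0.0358), and the call of *Cnn3* was lost (-0.44, *q* = 0.0611). Without replicate 1 instead, 4 were lower, the calls of *Cnn2* (-0.35, *q* = 0.166) and *Cnn3* (-0.40, *q* = 0.0564) were lost, and *Myl9* was no longer past 2-fold (-0.95, *q* = 0.00623).

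The directions depended on how the arrays were scaled. Each array was normalized so that ratios were centred on 0 at every level of brightness, and when it was centred on its overall median instead, the median of all genes moved from 0.029 to 0.46 in wild-type cells and from 0.033 to 0.63 in *Trp53*-/- cells. Under that scaling 2 of the 10 genes lay below 0 in wild-type and 3 in *Trp53*-/- cells, against 8 and 9 with loess. Of the 6 that had fallen in *Trp53*-/- cells, *Cnn2*, *Cnn3* and *Tpm1* turned above 0 there (0.074, 0.58 and 0.48). *Tagln2* kept its sign without passing (-0.23, limma *q* = 0.0719), whereas *Acta2* (-0.44, *q* = 0.00751) and *Myl9* (-0.48, *q* = 0.0107) passed. Relative to the median of all genes, *Tagln2* was at -1.23 in *Trp53*-/- cells with loess and at -0.86 with median centring, *Acta2* at -1.17 and -1.07, and *Myl9* at -1.34 and -1.11. Under each of the 4 scalings tried, 8 of the 10 genes in wild-type and 9 of the 10 in *Trp53*-/- cells lay below the median of all genes. With the log ratio of the scanner software, *Tagln2* (-1.17, *q* = 0.0361) and *Acta2* (-1.34, *q* = 0.0361) passed and *Myl9* did not (-1.37, *q* = 0.0545).

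**Figure D2:**
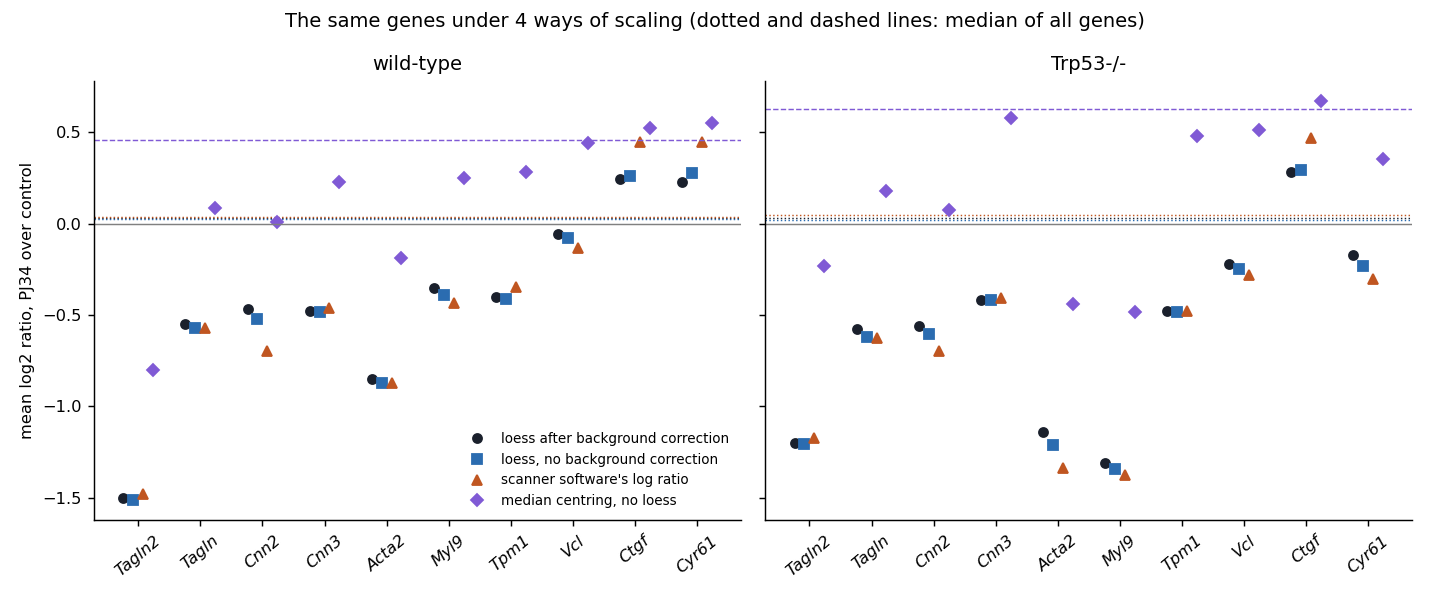
Mean log2 ratio of PJ34 over control of the 10 genes (vertical axis) in wild-type (left) and *Trp53*-/- cells (right) under 4 scalings, marked by shape and colour. Horizontal dotted and dashed lines are the medians of all genes under each scaling, of which that of median centring lay at 0.46 and 0.63, and *Tagln2*, *Acta2* and *Myl9* were below 0 in *Trp53*-/- cells under all 4.

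More than 1 probe was on the array for 5 of the genes, which allowed a comparison within a transcript. The second *Tagln2* probe lies on mm9 at chr1:174436738-174436797 (+ strand), upstream of the brighter one at chr1:174437450-174437506. Its sequence is shown because it reads a different part of the mRNA, and the values beside it come from 60 bases that the brighter probe does not share.
Tagln2 A_55_P2141884: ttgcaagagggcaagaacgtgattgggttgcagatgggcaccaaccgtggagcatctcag
It gave ratios of -1.31 and -1.26 in wild-type cells and of -1.17 and -0.89 in *Trp53*-/- cells, on each array slightly nearer to 0 than the brighter probe. In a fit over all 27043 probes its mean in *Trp53*-/- cells was -1.03 (limma *q* = 0.000208).

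*Tpm1* makes several isoforms by alternative splicing, and its 5 probes lie at different places of the gene. The 2 brightest overlap by 46 bases within chr9:66875782-66875855 on mm9 (- strand) and are not independent. Their means in *Trp53*-/- cells were -0.48 and -0.48 (limma *q* over all probes 0.00436 and 0.00519). The 2 probes below are shown because they read parts of *Tpm1* that the brightest probes do not, on mm9 at chr9:66880274-66880333 and chr9:66871166-66871225, both on the - strand.
Tpm1 A_55_P2078680: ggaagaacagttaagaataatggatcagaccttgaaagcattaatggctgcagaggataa
Tpm1 A_55_P2032192: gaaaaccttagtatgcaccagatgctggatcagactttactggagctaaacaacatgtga
The former gave -0.70 and -0.46 in wild-type and -0.56 and -0.20 in *Trp53*-/- cells (mean -0.38, limma *q* = 0.0221). The latter gave -0.21 and -0.28 in wild-type and -0.39 and -0.26 in *Trp53*-/- cells (mean -0.32, *q* = 0.0195). Both parts were thus lower in *Trp53*-/- cells, where the arrays of the 2 probes overlapped, whereas in wild-type cells they did not. The remaining *Tpm1* probe, A_55_P2187053 at chr9:66872131-66872190, was nearer to 0 (-0.20 and -0.062 in *Trp53*-/- cells, *q* = 0.183).

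The probes of the other genes did not always give the same size. The second *Cnn2* probe gave -0.25 and -0.15 in *Trp53*-/- cells (limma *q* over all probes 0.0880) against -0.77 and -0.35 at the brighter probe, so that the call of *Cnn2* rests on the latter. Of the 3 *Cnn3* probes, A_55_P2040863 gave -0.21 and -0.30 in *Trp53*-/- cells (*q* = 0.0454), and A_55_P2136145, at chr3:121127170-121127229 and on the strand opposite to the others, gave -0.11 and -0.083 (*q* = 0.254). Since that probe reads the opposite strand, whether its signal comes from *Cnn3* is uncertain. The second *Vcl* probe, whose 60 bases span 462 bases of the genome (chr14:21848574-21849035), gave 0.011 and 0.13 in *Trp53*-/- cells (*q* = 0.320), where the brighter probe gave -0.22 and -0.21.

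**Figure D3:**
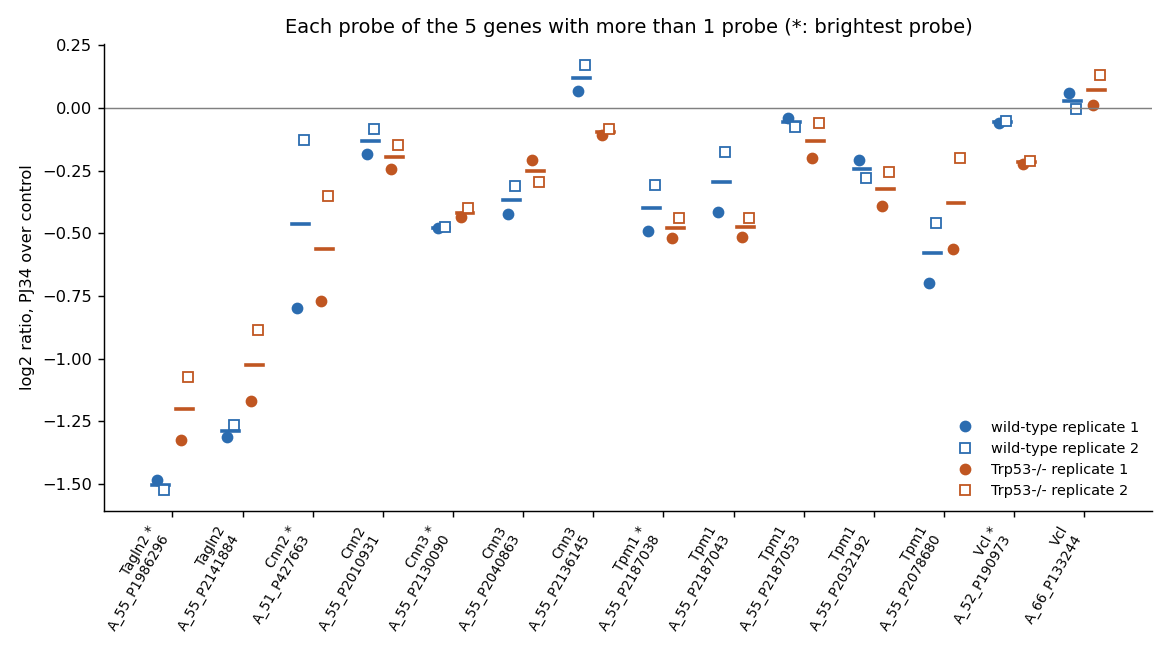
Log2 ratio of PJ34 over control (vertical axis) for each probe of the 5 genes with more than 1 probe, on each array. Symbols and colours stand for replicate and genotype, bars are means of 2 arrays, and asterisks mark the brightest probe of a gene. The dimmer *Tagln2* probe lay between -1.31 and -0.89 over the 4 arrays, and the probes of *Cnn2*, *Cnn3*, *Tpm1* and *Vcl* differed in size.

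Signals of the control channels, normalized between arrays, were compared between untreated *Trp53*-/- and untreated wild-type cells. This comparison shares the wild-type control RNA with the wild-type ratios. Over all genes tested, 3.61% were lower and 3.66% were higher in *Trp53*-/- by the same rule. Of the 10 genes, *Tagln* was lower and *Cyr61* was higher. *Tagln* had log2 signals of 11.33 and 11.74 in wild-type and of 9.75 and 9.51 in *Trp53*-/- cells, which lay far apart, and was 3.74-fold lower (log2 difference -1.90, SE 0.21, limma *q* = 0.0130). *Cyr61* had 7.06 and 7.30 in wild-type and 7.85 and 7.96 in *Trp53*-/- cells (difference 0.73, SE 0.18, limma *q* = 0.0493). Without *Trp53*-/- replicate 1 or 2, the difference was -2.02 or -1.78 for *Tagln* and 0.78 or 0.67 for *Cyr61*. Each of these fits leaves 1 array in that genotype. Both calls were lost in them, as were those of all genes tested. Without wild-type replicate 1, 4 of the 10 passed (*Tagln*, *Cyr61*, *Acta2* and *Vcl*), where 37.0% of all genes passed in either direction. Without wild-type replicate 2, 7 passed (*Tagln*, *Cyr61*, *Acta2*, *Myl9*, *Cnn2*, *Cnn3* and *Tpm1*), where 45.2% of all genes did. The Y-linked genes *Ddx3y* and *Eif2s3y* also moved with the genotype in untreated cells, as given above. They were well above background in both untreated wild-type cultures and in neither untreated *Trp53*-/- culture. The part of the sex of the embryos in these differences was not tested and cannot be told apart from that of the genotype.

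*Acta2* and *Myl9* varied most between the untreated wild-type cultures. *Acta2* had log2 signals of 10.59 and 12.68 there, a 4.25-fold gap, and of 9.41 and 9.39 in untreated *Trp53*-/- cells. Both wild-type cultures were higher, and the difference of -2.24 did not pass (SE 0.62, limma *q* = 0.0605). *Myl9* had 8.79 and 10.78 in untreated wild-type cells, a 3.95-fold gap, and 10.98 and 11.13 in untreated *Trp53*-/- cells (difference 1.27, SE 0.59, limma *q* = 0.148). For *Cnn2*, *Tpm1* and *Vcl* the gap between the untreated wild-type cultures was 1.63-fold to 1.67-fold, and in *Trp53*-/- it was at most 0.24 on the log2 scale for each of the 10 genes. *Tagln2* had 13.61 and 13.89 in wild-type and 13.63 and 13.45 in *Trp53*-/- cells, which overlapped (difference -0.21, SE 0.19, limma *q* = 0.309).

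Within each gene the 4 conditions were ordered by their mean log2 signal. For *Tagln2* the order was control wild-type (13.75 ± 0.20, SD, n = 2), control *Trp53*-/- (13.54 ± 0.13), PJ34 *Trp53*-/- (12.34 ± 0.050) and PJ34 wild-type (12.25 ± 0.17), in which the control pair overlapped, the PJ34 pair overlapped, and the 2 pairs did not. For *Acta2* it was control wild-type (11.64 ± 1.47), PJ34 wild-type (10.79 ± 1.22), control *Trp53*-/- (9.40 ± 0.016) and PJ34 *Trp53*-/- (8.26 ± 0.073), in which the wild-type conditions overlapped. *Tagln* had the same order as *Acta2*, from 11.54 ± 0.29 to 9.06 ± 0.15, with an overlap of the wild-type conditions. *Myl9* had control *Trp53*-/- at 11.05 ± 0.10, above the other 3 conditions (9.78 ± 1.40, 9.75 ± 0.61 and 9.43 ± 1.91), which overlapped. *Cnn3* was ordered control *Trp53*-/- (13.58 ± 0.084), control wild-type (13.34 ± 0.18), PJ34 *Trp53*-/- (13.16 ± 0.059) and PJ34 wild-type (12.86 ± 0.18) with no overlap. *Tpm1* and *Vcl* were highest in control *Trp53*-/- cells (13.07 ± 0.063 and 9.22 ± 0.041), and their other 3 conditions overlapped with a neighbour, while for *Cnn2* every condition overlapped with the next. *Ctgf* was highest in PJ34 *Trp53*-/- cells (7.44 ± 0.063) and lowest in control wild-type cells (7.06 ± 0.091), and *Cyr61* ranged from 7.91 ± 0.077 in control *Trp53*-/- to 7.18 ± 0.17 in control wild-type cells, without overlap of the genotypes.

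**Figure D4:**
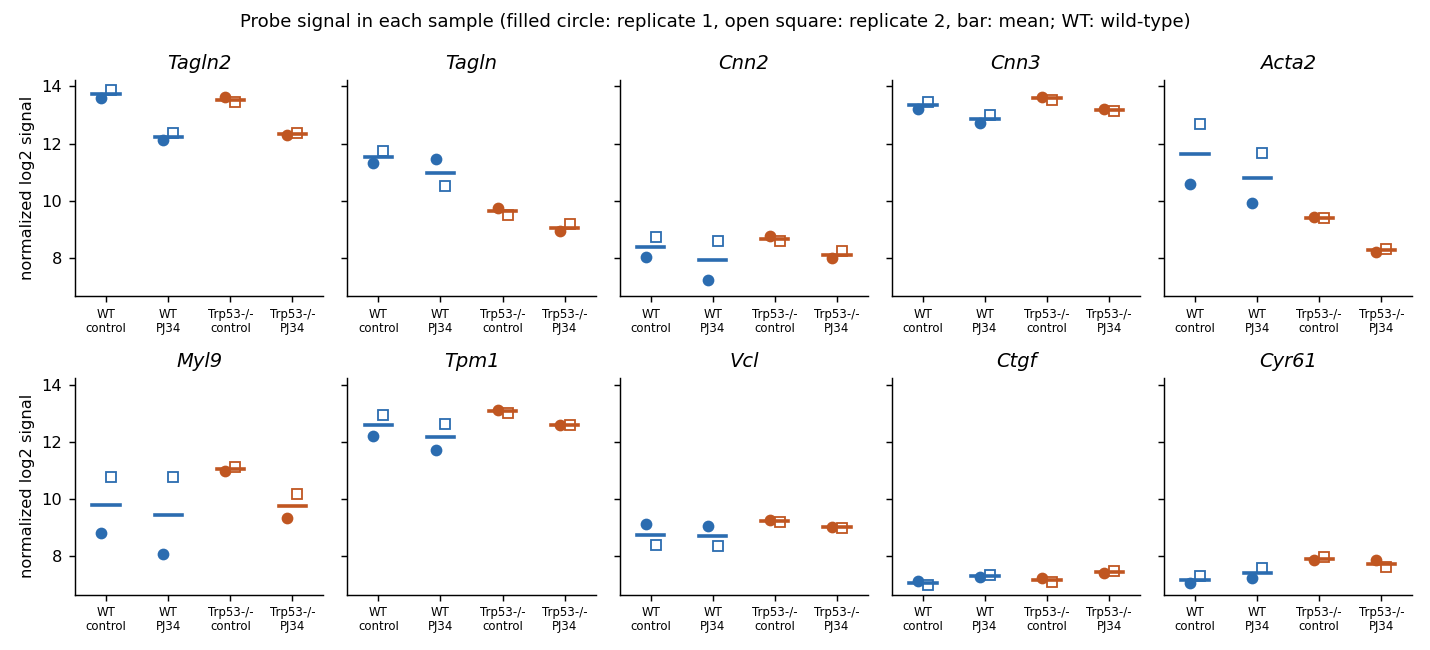
Normalized log2 signal (vertical axis, 1 panel per gene) in control and PJ34-treated cells of both genotypes. Circles are replicate 1, squares replicate 2 and bars means of 2 samples, and signals are to be compared within a panel only. *Tagln2* was lower in all 4 PJ34 samples than in all 4 controls, and *Acta2* and *Myl9* differed widely between the wild-type cultures.

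As a description, the mean ratio in wild-type minus that in *Trp53*-/- cells was -0.30 for *Tagln2*, 0.29 for *Acta2*, 0.96 for *Myl9* and 0.40 for *Cyr61*, and between -0.060 and 0.16 for the other 6 genes. Of all genes, 1.74% passed the test of this difference in either direction, and no test is given for the 10 genes.

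The genes with ratios most like those of *Tagln2* were found by the Euclidean distance over the 4 log2 ratios, among the 15409 genes whose signal was well above background in every channel of every array. Nearest were *Fgfr3*, a receptor for fibroblast growth factors (distance 0.36), *Cd93*, a transmembrane receptor (0.47), *Mvd*, an enzyme of cholesterol synthesis (0.53), a probe without a gene name, A_55_P2113964 (0.58), and *Mfng*, a glycosyltransferase that modifies Notch receptors (0.63). *Fgfr3* had ratios of -1.49 and -1.39 in wild-type cells and of -1.18 and -1.37 in *Trp53*-/- cells, and *Mfng* had -1.45 and -1.68 in wild-type and -0.82 and -1.41 in *Trp53*-/- cells. None of the other 9 genes described here was among these 5. *Acta2* was the nearest of them, in place 30 with a distance of 0.96, and *Myl9* came next in place 422.

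Other genes of the pathways came from 3 lists. The list of actin-linked SRF targets held 39 other genes, of which 36 passed the filter on dim probes, and *Cnn1*, *Actg2* and *Ablim1* did not. In *Trp53*-/- cells 15 of the 36 were lower (41.7%, against 10.5% of all genes) and 2 were higher (12.8% of all genes were), with a median of -0.15. The 15 include *Acta1* (-0.35), which was not well above background in any *Trp53*-/- channel. It passed the filter through the wild-type arrays, so that its *Trp53*-/- ratio compares dim signals. In wild-type cells 8 were lower (22.2%, against 11.3%) and 3 were higher (13.6% of all genes were), with a median of -0.13. With median centring, which moved the median of all genes above 0, 1 of the 36 was lower and 27 were higher in *Trp53*-/- cells. Of all 20231 genes, 89 were lower and 13670 higher there under that scaling. Without *Trp53*-/- replicate 2 fewer of the 36 were lower or higher, as was so among all genes. *Tgfb1i1*, the focal adhesion protein Hic-5, had -0.78 and -0.77 in wild-type and -1.26 and -1.07 in *Trp53*-/- cells. It fell by 1.16 on the log2 scale in *Trp53*-/- cells (SE 0.092, limma *q* = 7.14e-05) and by 0.77 in wild-type cells (*q* = 0.000322). *Csrp1* and *Csrp2*, LIM-domain proteins of the cytoskeleton, fell in both genotypes, by 0.81 (*q* = 0.000231) and 0.88 (*q* = 0.000205) in wild-type and by 0.53 (*q* = 0.0022) and 0.45 (*q* = 0.00518) in *Trp53*-/- cells. The integrin subunit gene *Itga5* fell in *Trp53*-/- cells (-0.83 and -0.95, *q* = 0.000277), as did *Fhl2* (-0.56 and -0.68, *q* = 0.0012), a LIM-domain cofactor. *Actg1*, cytoplasmic γ-actin, rose in both genotypes, by 0.35 in wild-type (*q* = 0.0115) and 0.42 in *Trp53*-/- cells (*q* = 0.00606). *Actn1* rose in wild-type cells (0.29, *q* = 0.0319), where it was well above background in 1 of 2 control channels. *Cald1* rose in wild-type (0.26, *q* = 0.0495) and fell in *Trp53*-/- cells (-0.34, *q* = 0.0221), and the difference between the genotypes did not pass (*q* = 0.0548). Without *Trp53*-/- replicate 2 the *Trp53*-/- calls of *Tgfb1i1*, *Csrp1*, *Csrp2*, *Itga5*, *Fhl2* and *Actg1* remained and that of *Cald1* was lost (-0.25). Without replicate 1 instead, those of *Csrp2* (-0.35), *Actg1* (0.36) and *Cald1* (-0.43) were lost.

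The list of YAP/TEAD targets held 29 other genes, of which 19 passed the filter. In *Trp53*-/- cells 8 of the 19 were lower (42.1%, against 10.5% of all genes) and 2 higher (10.5%, against 12.8%), with a median of -0.21 against 0.033 over all genes. In wild-type cells 5 were lower (26.3%, against 11.3%) and 1 was higher (13.6% of all genes were), with a median of -0.072 against 0.029. With median centring, 0 of the 19 were lower and 12 higher in *Trp53*-/- cells, where 89 of all 20231 genes were lower and 13670 higher. Without *Trp53*-/- replicate 2 fewer of the 19 were lower or higher, as was so among all genes. *Ccdc80*, a secreted matrix protein, had -0.91 and -0.68 in wild-type and -0.69 and -0.36 in *Trp53*-/- cells and fell in both genotypes (limma *q* = 0.000521 and 0.0052). *Igfbp3*, a binding protein of insulin-like growth factors, fell in *Trp53*-/- cells (-0.49, *q* = 0.00343). *Fjx1* (-0.29 and -0.53, *q* = 0.0269 and 0.00234), *Wwc1* (-0.41 and -0.27, *q* = 0.00582 and 0.0314) and *Nt5e* (-0.37 and -0.33, *q* = 0.0196 and 0.0314) fell in wild-type and in *Trp53*-/- cells. *Ptpn14*, a phosphatase that binds YAP, was higher in wild-type (0.40, *q* = 0.00771) and in *Trp53*-/- cells (0.26, *q* = 0.0431). It was dim, well above background in 1 of 2 control channels of each genotype. It passed the filter through its PJ34 channels, so that its calls are not independent of the filter. *Nuak2* rose in *Trp53*-/- cells (0.29, *q* = 0.0254). Without *Trp53*-/- replicate 2 the *Trp53*-/- calls of *Ccdc80*, *Fjx1* and *Igfbp3* remained, and those of *Wwc1*, *Nt5e*, *Ptpn14* and *Nuak2* were lost. Without replicate 1 instead, the same calls and that of *Ccdc80* (-0.36) were lost.

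Of 30 regulators of both pathways 28 passed the filter, and *Tead4* and *Myocd* did not. In *Trp53*-/- cells 5 of the 28 were lower (17.9%, against 10.5% of all genes) and 4 higher (14.3%, against 12.8%), and in wild-type cells 3 were lower and 3 higher, where 11.3% and 13.6% of all genes were. The shares in wild-type cells and that of the higher genes in *Trp53*-/- cells were near those of all genes, and the medians were 0.0038 and 0.015. *Srf* itself had 0.077 and 0.24 in wild-type and 0.18 and 0.14 in *Trp53*-/- cells (limma *q* = 0.136 and 0.132), *Mkl1* had means of -0.0057 and -0.090, and *Yap1* had 0.15 and 0.24 (*q* = 0.169 and 0.0676), none of which passed. *Mkl2* rose by 0.36 in wild-type (*q* = 0.0102) and by 0.27 in *Trp53*-/- cells (*q* = 0.0344), and *Wwtr1* by 0.30 in wild-type cells (*q* = 0.0336). Among the TEAD genes *Tead1* rose in both genotypes (0.42 and 0.35, *q* = 0.0112 and 0.0239), and *Tead2* fell in both (-0.59 and -0.33, *q* = 0.00111 and 0.0191). *Tead3* was higher in *Trp53*-/- cells (0.30, *q* = 0.0257), but it was not well above background in any control channel. It passed the filter only through the PJ34 channels of *Trp53*-/- cells. Its call, 1 of the 4 above, is therefore a description and not a test independent of the filter. *Rhoc*, a small GTPase upstream of actin assembly, had -0.64 and -0.73 in wild-type and -0.65 and -0.50 in *Trp53*-/- cells and fell in both (*q* = 0.000495 and 0.00177). *Vgll4* fell by 0.24 in wild-type (*q* = 0.0482) and by 0.30 in *Trp53*-/- cells (*q* = 0.0238), *Limk1*, a kinase of cofilin, by 0.35 in *Trp53*-/- cells (*q* = 0.0231), and *Rock1* rose there by 0.38 (*q* = 0.0330). Without *Trp53*-/- replicate 2 the *Trp53*-/- calls of *Rhoc*, *Tead1* and *Limk1* remained, and those of *Mkl2*, *Tead2*, *Tead3*, *Vgll4* and *Rock1* were lost, that of *Rock1* at 0.096. Without replicate 1 instead, those of *Rhoc* and *Rock1* (0.66) remained. Those of *Tead1* (0.16), *Limk1* (-0.18), *Mkl2*, *Tead2*, *Tead3* and *Vgll4* were then lost. With median centring, *Tead2*, *Rhoc*, *Limk1*, *Vgll4*, *Fjx1*, *Igfbp3*, *Ccdc80*, *Wwc1*, *Csrp1*, *Csrp2* and *Cald1* turned above 0 in *Trp53*-/- cells, as did *Tead2*, *Rhoc*, *Vgll4*, *Wwc1* and *Fjx1* in wild-type cells. Of the 83 genes of the 3 lists, 28 were lower and 8 higher in *Trp53*-/- cells, and 16 were lower and 7 higher in wild-type cells. Fewer passed in a genotype when either of its arrays was left out. The same held for all genes tested, so that the loss is not particular to the lists.

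**Figure D5:**
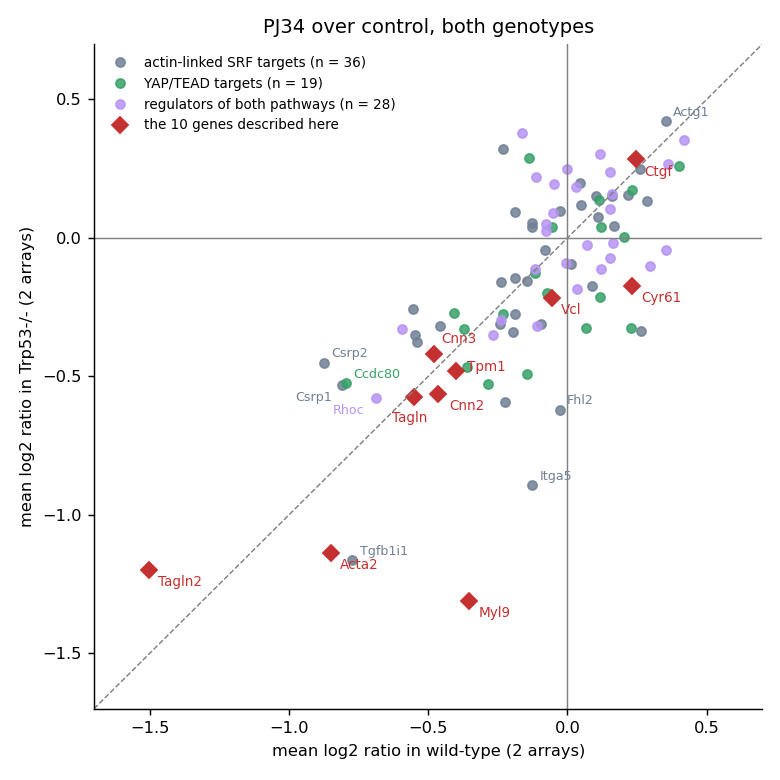
Mean log2 ratio of PJ34 over control in wild-type (horizontal axis) and in *Trp53*-/- cells (vertical axis), each over 2 arrays. Red diamonds are the 10 genes, grey, green and violet circles the other genes of the 3 lists, and the dashed line marks equal ratios. *Tagln2*, *Acta2*, *Tgfb1i1* and *Myl9* lay lowest in *Trp53*-/- cells, and *Itga5* and *Fhl2* lay near 0 in wild-type cells and below it in *Trp53*-/- cells.

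Among untreated cells, 9 of the 83 genes were higher in *Trp53*-/- than in wild-type and 0 were lower, against 3.66% and 3.61% of all genes. These calls were lost without either *Trp53*-/- array, as were those of all genes tested. Such a fit leaves 1 array in that genotype, and the loss is not particular to these genes. Without wild-type replicate 1 or 2, 40 and 39 of the 83 genes passed in either direction, as did 37.0% and 45.2% of all genes. The 9 were *Tgfb2*, a growth factor of the TGF-β family (8.59 and 8.68 in wild-type, 10.60 and 10.85 in *Trp53*-/-, 4.27-fold, limma *q* = 0.00875), *Itga5* (3.53-fold, *q* = 0.0101), *Stk3*, a Hippo kinase (2.61-fold, *q* = 0.0146), *Cald1* (2.18-fold, *q* = 0.0222), *Wwtr1* (2.16-fold, *q* = 0.0308), *Axl* (2.12-fold, *q* = 0.0237), *Fhl2* (2.06-fold, *q* = 0.0254), *Rhoc* (1.81-fold, *q* = 0.0332) and *F3* (1.77-fold, *q* = 0.0438). The level of *Srf* did not pass (difference 0.34, *q* = 0.180).

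Since *Acta2*, *Tagln* and *Myl9* are also made by smooth muscle cells and pericytes, markers of cell types that could accompany NSPCs were read on the same arrays. Of 10 smooth muscle and pericyte markers, *Myh11*, *Des*, *Pdgfrb*, *Rgs5*, *Kcnj8*, *Abcc9* and *Lmod1* were not well above background in any channel, and 3 were, *Cspg4*, *Smtn* and *Notch3*, of which *Cspg4* and *Notch3* are also made by neural progenitors. The summed normalized signal of the 10 markers was 3708 and 3705 in control wild-type, 5087 and 3386 in PJ34 wild-type, 4404 and 4554 in control *Trp53*-/- and 3047 and 3141 in PJ34 *Trp53*-/- cells. It thus moved with PJ34 in *Trp53*-/- cells, where *Cspg4* (-0.83, limma *q* = 0.0020), *Smtn* (-0.40, *q* = 0.00755) and *Notch3* (-0.69, *q* = 0.00489) fell. Without *Trp53*-/- replicate 2 the call of *Smtn* was lost (*q* = 0.110) and those of *Cspg4* (*q* = 0.0083) and *Notch3* (*q* = 0.0438) remained. In wild-type cells *Notch3* rose (0.61, *q* = 0.00734) and *Smtn* fell (-0.47, *q* = 0.00292). With median centring *Smtn* was above 0 in both genotypes and *Notch3* in *Trp53*-/- cells too. Between 2 and 4 of 9 fibroblast and meningeal markers were well above background, with sums from 1445 to 1971 over all channels. *Col1a1*, *Col3a1*, *Dcn* and *Lum* were not so in any channel, whereas *Pdgfra* and *Foxc1* were in all 8 and *Col1a2* in 4. *Pdgfra* fell in wild-type (-0.43, limma *q* = 0.0171) and in *Trp53*-/- cells (-0.32, *q* = 0.0471, and -0.55 without *Trp53*-/- replicate 2), and *Foxc1* and *Col1a2* did not pass. With median centring *Pdgfra* was above 0 in both genotypes. In untreated cells it was lower in *Trp53*-/- (difference -0.71, *q* = 0.0497). Of 7 endothelial markers *Cdh5*, *Cldn5*, *Tek*, *Emcn* and *Esam* were not well above background in any channel, and the sum was 8329 to 8763 in control wild-type and 3446 to 3834 in control *Trp53*-/- cells, a difference carried by *Kdr* (13.02 and 12.94 against 11.72 and 11.55). Of 6 microglial markers *Aif1*, *Cx3cr1*, *Ptprc* and *Tyrobp* were not well above background in any channel, whereas *Csf1r* (10.26 and 10.62 in control wild-type, 9.80 and 9.46 in control *Trp53*-/- cells) and *Itgam* (12.18 and 12.40 against 11.71 and 11.52) were so in all 8. The sum of the 6 was 6155 to 7276 in control wild-type and 3903 to 4496 in control *Trp53*-/- cells, and 6858 to 8381 and 4080 to 4833 with PJ34. The part of such cells in the values above was not tested.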

How the data were processed

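Total RNA of 2 wild-type and 2 *Trp53*-/- NSPC preparations was analyzed on 4 Agilent SurePrint G3 Mouse GE arrays in 2 colours, and the scanner files were made with Feature Extraction 10.7.3.1. The deposited intensity values used here are the mean signal of each spot and the median of its local background, uncorrected, and the processed green signal served as an alternative. The deposited log10 ratios of that software, corrected for background and dye, are exactly 0 for 29.3% to 33.1% of spots and served as an alternative after conversion to log2. A table with 4 unmapped columns of normalized values was not used, because its columns carry numbers only.

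Background was corrected by normexp (offset 50) and ratios by loess with limma 3.58.1 in R 4.3.3. Control and outlier spots (228 to 276 per array) were left out, and spots of 1 probe were averaged. Probes with a channel well above background on both arrays of a genotype were kept (27043, 48.6%). Symbols came through RefSeq accessions for 26300 probes. A gene was read from its brightest probe, which can differ from its other probes. limma was fitted over all genes with a mean per genotype, and for untreated cells on the Cy3 signals after quantile normalization of the mean brightness between arrays. Genes passed at *p* and Storey's *q* (lambda 0.05 to 0.95) below 0.05. On simulated wild-type ratios of 20231 genes, of which 200 were changed, 181 were recovered past 2-fold at a change of 1.5 on the log2 scale and 0 at a change of 0.5, with 0 false calls. *q* also depends on how many genes change, and many more passed in the deposited data. The precision is limited by the 2 arrays per genotype.

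Named were the 10 genes, the 5 nearest to *Tagln2*, the main regulators, and from each list the 3 largest changes per direction among genes with *q* below 0.05. The genes and lists were chosen with earlier results of these data known. Alternatives were no background correction, the scanner's ratios, median centring, no or a strict filter, the replicate block, Benjamini-Hochberg adjustment, the mean of a gene's probes, green-channel scalings, and leaving out each array. A slide block was not possible, as each array had its own slide. One gene that this rule named is not reported here.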

Additional observations from a re-analysis of the deposited data

Results flagged for a closer look

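The response to PJ34 differed between the genotypes for 2 of the 83 other pathway genes, by the test of wild-type minus *Trp53*-/- in limma that 1.74% of all genes passed. For *Itga5*, an integrin subunit, the difference was 0.77 on the log2 scale (SE 0.13, *q* = 0.0176), from ratios of -0.22 and -0.037 in wild-type and -0.83 and -0.95 in *Trp53*-/- cells. For *Fhl2* it was 0.59 (SE 0.13, *q* = 0.0406), from -0.050 and -0.0062 in wild-type and -0.56 and -0.68 in *Trp53*-/- cells. Without *Trp53*-/- replicate 2, the differences were 0.71 (*q* = 0.0689) and 0.54 (*q* = 0.157), so that neither passed. Of the smooth muscle and pericyte markers, *Notch3* (1.30, *q* = 0.0110) and *Cspg4* (0.95, *q* = 0.0339) differed in the same direction. In untreated cells *Itga5* had log2 signals of 6.93 and 6.86 in wild-type, which is dim, and of 8.61 and 8.82 in *Trp53*-/- cells. For *Fhl2* these were 7.40 and 7.70 against 8.62 and 8.56. Whether the lower levels in wild-type cells have a part in the smaller response there was not tested. No other explanation was tested either.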

How the results depend on the processing

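Of the 10 genes, 6 were lower in *Trp53*-/- cells, 2 with the scanner's ratios and 2 with median centring, and 4 to 7 when 1 array was left out. In untreated cells 2 of the 10 passed, against 1 without the filter on dim probes, 1 with a strict filter, 1 with Benjamini-Hochberg adjustment, 1 with the scanner's processed green signal and 0 to 7 when 1 array was left out. Of the 83 other pathway genes, 16 were lower and 7 higher in wild-type cells. These were 1 and 45 with median centring, and 10 to 15 and 2 to 9 when 1 array was left out. The 7 higher genes became 3 with the scanner's ratios, 4 without the filter and 4 with Benjamini-Hochberg adjustment. In *Trp53*-/- cells 28 were lower and 8 higher, which became 9 and 2 with the scanner's ratios, 1 and 64 with median centring, and 10 to 29 and 1 to 10 when 1 array was left out. The 8 higher genes became 3 with Benjamini-Hochberg adjustment and 5 with the mean of a gene's probes. In untreated cells 9 of the 83 passed, and 0 to 40 when 1 array was left out. The difference between genotypes was passed by 2 of the 83, by 1 without background correction, by 0 with the scanner's ratios and by 0 with median centring, by 5 with a strict filter, by 1 with Benjamini-Hochberg adjustment, and by 0 to 3 when 1 array was left out. Among all genes, median centring gave 11950 higher and 84 lower in wild-type cells and 13670 and 89 in *Trp53*-/- cells, against 2746 and 2276 and 2591 and 2132 with loess. With the scanner's ratios these were 1200 and 989 in wild-type and 948 and 578 in *Trp53*-/- cells. Leaving out 1 array of a genotype also lowered the counts of all genes for PJ34 in that genotype. In untreated cells the calls of all genes were lost without either *Trp53*-/- array.

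Median centring turned *Tagln* (0.086), *Cnn2* (0.0092), *Cnn3* (0.23), *Myl9* (0.25), *Tpm1* (0.28) and *Vcl* (0.44) above 0 in wild-type cells. In *Trp53*-/- cells it turned *Tagln* (0.18), *Cnn2* (0.074), *Cnn3* (0.58), *Tpm1* (0.48), *Vcl* (0.51) and *Cyr61* (0.36). Among the genes of the lists that turned were *Wwc1* (0.18), *Rhoc* (0.026), *Tead2* (0.068) and *Vgll4* (0.36) in wild-type cells. In *Trp53*-/- cells *Fjx1* (0.37), *Ccdc80* (0.13), *Igfbp3* (0.46), *Rhoc* (0.47), *Limk1* (0.47) and *Tead2* (0.58) were among them. Median centring also put the difference between genotypes below 0 for 7 of the 10 genes, against 3 with loess, that of *Vcl* at -0.069. The mean of a gene's probes turned the difference of *Cnn3* to 0.014. The cause was not tested.

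The replicate numbers do not pair the arrays, since no label ties equal numbers and the deviations of same-numbered arrays correlated at -0.18 for ratios and 0.081 for control signals over genes. With the replicate block, 7 of the 10 genes were lower in *Trp53*-/- cells, 4 of the 10 and 17 of the 83 passed in untreated cells, and 4 of the 83 passed the difference between genotypes. Of all genes, 1908 were then lower in *Trp53*-/- cells, 16.1% passed in untreated cells and 2.75% passed the difference. With the numbers crossed, chosen after seeing the data, 8 of the 10 were lower in *Trp53*-/- cells. Of the 83, 20 were lower and 12 higher in wild-type cells, 30 lower and 12 higher in *Trp53*-/- cells, and 6 passed the difference. Of all genes, 2919 were then lower and 3699 higher in wild-type cells and 2835 and 3611 in *Trp53*-/- cells, and 5.60% passed the difference. A fit with slide as a block was not run, because each array had its own slide.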
